A study of Mus musculus with 6 samples.

Results

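The zinc finger homeobox genes Zfhx2, Zfhx3 and Zfhx4, the teashirt genes Tshz1, Tshz2 and Tshz3, and Satb1 were described across the libraries of palates with and without a neural crest deletion of Meis2. They were taken by symbol from the authors' 2 full comparison tables, which held all 7 of them among 24421 genes, and each had a base mean, the mean of its normalised reads over libraries, of at least 10. RNA-seq was made from the anterior palatal mesenchyme of C57BL/6 mouse embryos at E12.5 (embryonic day), after Dispase II treatment to remove the epithelium. There were 3 wildtype (WT) samples and 3 Wnt1Cre;Meis2f/f samples, which the labels call biological replicates. In the Wnt1Cre;Meis2f/f embryos, called mutant here, both Meis2 alleles were floxed and the Cre recombinase was driven by Wnt1 sequences, which are active in the neural crest and parts of the early brain, so that palate cells of other origins were not its target. Whether the wildtype embryos carried the Cre or the floxed allele, and whether samples were pooled from several embryos, is not stated in the sources used here. The comparison asks which transcripts differ in the palate mesenchyme when this TALE homeobox factor is deleted.

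The Zfhx genes encode very large nuclear proteins with many zinc fingers and several homeodomains. The Tshz genes, the vertebrate relatives of Drosophila teashirt, encode zinc finger proteins that also carry a homeodomain and are known to repress transcription together with the corepressor CtBP. Satb1 encodes a protein with CUT domains and a homeodomain that binds AT-rich DNA and organises chromatin loops, best known from T cells. In the mouse, loss of Zfhx4 or of Tshz1 is known to disturb formation of the palate. Zfhx3 is known for roles in the heart and the circadian clock, Zfhx2 for pain sensing neurons, and Tshz3 for the smooth muscle of the ureter.

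Of the 7, Zfhx4 stood apart in the mutant. Its normalised reads fell to 0.621 of the wildtype level, and the gene was called lower in the comparison of all 6 libraries and in the comparison of 4 of them. Its relative Zfhx3 and the teashirt gene Tshz2 had more normalised reads in every mutant than in every wildtype library, for Zfhx3 only narrowly. The ratios of group means were 1.26-fold and 1.44-fold, but neither gene passed the adjusted test. Zfhx2, Tshz1, Tshz3 and Satb1 were not called in any comparison. A long noncoding RNA gene read from the opposite strand at the start of Zfhx4, 2700069I18Rik, was also called lower.

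The deposited tables give a mean over libraries for each gene and no value per library. Because a normalised mean is a sum of whole reads divided by known size factors, the reads of each library could be worked out for 20812 of 20970 genes with any read, which hold 69.6% of the summed base mean. For 6 of the 7 genes described here only 1 combination of reads gave both deposited base means. For Zfhx4, whose base mean was too high for a search of every combination, several of those searched did. Only 1 of them also gave the deposited fold changes and standard errors. The libraries are known by genotype but not by replicate number, so they carry the letters A, B and C within each genotype, the same letter in both genotypes pairs nothing, and C marks those left out of the 4-library comparison. Recovered reads per library ran from 8484317 to 15364876, with size factors from 0.775 to 1.44. The sides were named from Meis2, whose normalised reads were 1526, 1695 and 1549 in the wildtype and 1250.0, 1218 and 1378 in the mutant libraries, and every direction here rests on that reading. Its mutant mean was 0.806 of the wildtype mean, and it was itself not called in the authors' deposited 6-library table (log2 fold change -0.28, adjusted p 0.0743, DESeq2 Wald test) or by limma voom (adjusted p 0.114), while the authors' deposited 4-library table called it (adjusted p 0.0213). Fold changes in the authors' deposited tables are moderated, that is drawn toward 0, and are given beside the plain ratio of group means.

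Zfhx4 (chromosome 3, 5218526 to 5415857, plus strand, GRCm38) was the most abundant of the 7. It had 11110, 12119 and 10802 normalised reads in the wildtype libraries A, B and C, and 7670, 6212 and 7254 in the mutant libraries. The lowest wildtype library lay well above the highest mutant library. Group means were 11343 ± 689 and 7045 ± 751 (SD, n = 3 each), a log2 ratio of -0.69. In the authors' deposited table that holds 6 libraries, the moderated log2 fold change was -0.61 (SE 0.0928, adjusted p 9.19e-09, DESeq2 Wald test). In the authors' deposited table with 4 of them, which shares all of its libraries with the other, it was -0.66 (adjusted p 6.39e-11, DESeq2 Wald test). A second method on the recovered reads, limma voom, gave a log2 fold change of -0.69 (95% interval -0.89 to -0.49, adjusted p 0.00263), and leaving out each library in turn gave -0.75 to -0.60 with adjusted p from 0.00158 to 0.0284 by the same method. An exact two-sided permutation test over libraries gave p = 0.1, the smallest that 3 against 3 allows.

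Zfhx4 was the only gene of the 7 called at an adjusted p under 0.05, where 2.9% of the 14942 genes with an adjusted p were called in the authors' deposited table of 6 libraries, 1.16% lower and 1.75% higher. With 4 libraries it was again the only gene called, beside 2.3% of all genes (0.99% lower and 1.31% higher), and by limma voom it was so beside 2.18%. Its base mean of 9194 in the authors' deposited table exceeded that of 99.2% of the 14580 measured genes, those whose base mean reached 10. Among the 173 genes called lower in the authors' deposited table, it ranked 3 by base mean and 50 by size of the moderated fold. Its group mean fell by 4298 normalised reads, more than that of any other of the 20812 genes with recovered reads, a set that leaves out genes with a base mean above 10000.

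**Figure D1:**
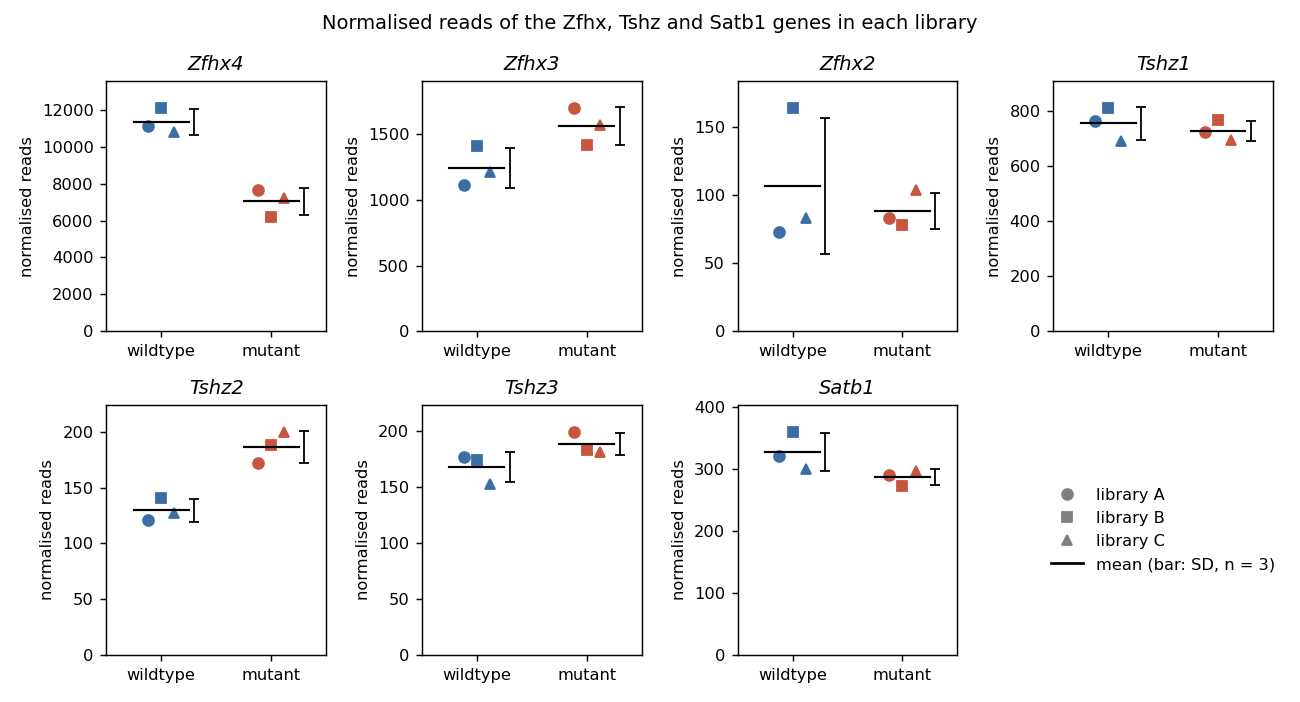
Normalised reads (y axis, from 0) of each gene in the 3 wildtype (blue) and 3 mutant (red) libraries, with group mean (line) and SD (bar). Zfhx4 separates widely, Zfhx3, Tshz2, Tshz3 and Satb1 separate by less, and Zfhx2 and Tshz1 overlap, with Zfhx2 high in wildtype library B.

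2700069I18Rik, which the annotation (GENCODE M21) lists as an antisense RNA gene, starts inside Zfhx4 and runs the other way (chromosome 3, 5177586 to 5220841, minus strand). The gene bodies share 2316 bases and their annotated exons share 0. It had 247, 196 and 181 normalised reads in the wildtype libraries A, B and C, and 95.3, 66.0 and 87.5 in the mutant ones. The genotypes did not overlap, and the mutant mean was 0.399 of the wildtype mean. Its moderated log2 fold change in the authors' deposited 6-library table was -0.90 (SE 0.139, adjusted p 2.35e-08, DESeq2 Wald test), and the authors' deposited 4-library table gave -0.76 (adjusted p 1.58e-05, DESeq2 Wald test). By limma voom on the recovered reads its adjusted p was 0.00342. It had 1.06 to 2.22 reads for every 100 of Zfhx4 in a library. Whether counting used strand, and which annotation it used, is not stated in the sources used here, so reads from the stretch that these genes share cannot be told apart. The wildtype mean of 2700069I18Rik was 208 normalised reads, and the mean of Zfhx4 fell by 4298. The part of shared reads in the lower counts of either gene was not tested.

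Pex2, a peroxisome assembly gene and the nearest measured protein-coding gene on the other side, 144 kb past the end of Zfhx4, had 571, 445 and 511 normalised reads in the wildtype and 465, 456 and 447 in the mutant libraries. Its groups overlapped, and it was not called in the authors' deposited 6-library table (log2 fold change -0.14, adjusted p 0.766, DESeq2 Wald test).

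**Figure D2:**
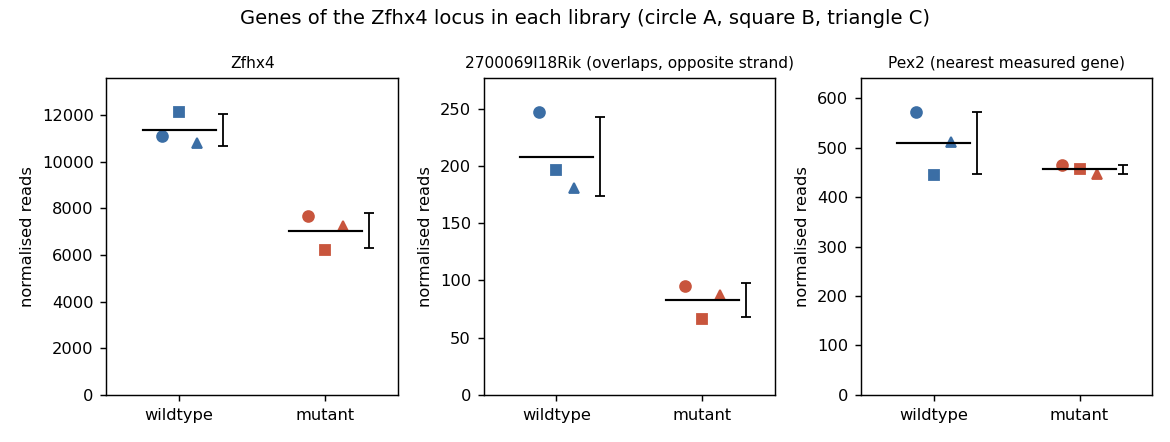
Normalised reads (y axes, from 0) of Zfhx4, of the overlapping opposite-strand gene 2700069I18Rik and of Pex2 in each wildtype (blue) and mutant (red) library, with mean (line) and SD (bar, n = 3). The first pair is lower in all mutant libraries, and Pex2 overlaps between genotypes.

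Zfhx3 (chromosome 8, 107942644 to 108961630, plus strand) went the other way from Zfhx4. It had 1109, 1412 and 1209 normalised reads in the wildtype libraries A, B and C, and 1700.0, 1415 and 1567 in the mutant ones. The groups did not overlap, but mutant library B lay just above wildtype library B. Means were 1243 ± 155 and 1561 ± 143 (SD, n = 3 each). Its moderated log2 fold change in the authors' deposited 6-library table was 0.29 (SE 0.104), with a p of 0.00583 and an adjusted p of 0.14 (DESeq2 Wald test). The authors' deposited 4-library table gave 0.26 and an adjusted p of 0.274 (DESeq2 Wald test).

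Because Zfhx3 and Zfhx4 lie on opposite sides, their ratio within a library, which no scaling between libraries can move, was compared as well. In the wildtype libraries A, B and C there were 0.0998, 0.117 and 0.112 reads of Zfhx3 per read of Zfhx4, and in the mutant libraries 0.222, 0.228 and 0.216. The 6 values fell into separate narrow ranges, with means of 0.109 ± 0.00864 and 0.222 ± 0.00584 (SD, n = 3 each) and a log2 difference of 1.02. The exact two-sided permutation p was 0.1, the smallest possible here, and 0.15 adjusted over the 6 pairs of relatives compared. Every mutant library had more normalised reads of Zfhx3 and fewer of Zfhx4 than every wildtype library, so this ratio had to separate. Its separation and its p add no evidence to the values of Zfhx3 and Zfhx4 themselves.

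Zfhx2 (chromosome 14, 55060262 to 55092324, minus strand) was the least abundant of the 7 and the most variable. Its normalised reads were 72.7, 164 and 82.8 in the wildtype libraries A, B and C, and 83.5, 78.3 and 103 in the mutant ones. Wildtype library B held about as many normalised reads as both other wildtype libraries together, and the genotypes overlapped. The moderated log2 fold change was -0.13 (SE 0.15, adjusted p 0.864, DESeq2 Wald test) in the authors' deposited table, and without wildtype library B the sign turned, to 0.19 by limma voom. The coefficient of variation between replicates that its deposited standard error implies was 21.7%, higher than for 97.9% of the 722 genes within 1.2 times of its base mean, whose median was 15.8%.

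Tshz2 (chromosome 2, 169633013 to 170071816, plus strand) had the highest ratio of mutant to wildtype group means of the 7. Its normalised reads were 121, 141 and 128 in the wildtype libraries A, B and C, and 172, 188 and 200.4 in the mutant ones. Every mutant library exceeded every wildtype library, with means of 130 ± 10.2 and 187 ± 14.3 (SD, n = 3 each) and a log2 ratio of 0.53. The moderated log2 fold change was 0.40 (SE 0.131) with a p of 0.00249 and an adjusted p of 0.0743 (DESeq2 Wald test) in the authors' deposited table of 6 libraries. It was 0.28, with an adjusted p of 0.537 (DESeq2 Wald test), in the authors' deposited table of 4. By limma voom the 95% interval of its log2 fold change ran from 0.24 to 0.82 and the adjusted p was 0.0785, which missed the threshold too.

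Tshz1 (chromosome 18, 84011627 to 84087706, minus strand), the most abundant teashirt gene, had 762, 811 and 692 normalised reads in the wildtype libraries A, B and C, and 724, 766 and 692 in the mutant ones. The genotypes overlapped, and means were 755 ± 59.8 and 727 ± 36.7 (SD, n = 3 each). Its moderated log2 fold change was -0.05 (SE 0.0991, adjusted p 0.936, DESeq2 Wald test) in the authors' deposited table. The limma voom interval, -0.26 to 0.15 on the log2 scale, bounds the size of any difference.

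Tshz3 (chromosome 7, 36698118 to 36773553, plus strand) had 177, 174 and 153 normalised reads in the wildtype libraries A, B and C, and 199.6, 183 and 182 in the mutant ones. The groups did not overlap but were separated by only a few normalised reads. Its moderated log2 fold change was 0.13 (SE 0.127, adjusted p 0.832, DESeq2 Wald test) in the authors' deposited table, and the limma voom interval ran from -0.10 to 0.44.

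The reads of the teashirt genes were also set against each other within each library. Tshz1 had 6.32, 5.76 and 5.42 reads per read of Tshz2 in the wildtype libraries A, B and C, and 4.21, 4.06 and 3.46 in the mutant ones. The ranges did not overlap, and means were 5.83 ± 0.455 and 3.91 ± 0.402 (SD, n = 3 each), a log2 difference of -0.58. The ratio of Tshz1 to Tshz3 was 4.50 ± 0.17 in wildtype and 3.87 ± 0.278 in mutant libraries, and that of Tshz2 to Tshz3 was 0.776 ± 0.0817 and 0.997 ± 0.124 (SD, n = 3 each). Each teashirt ratio had an exact permutation p of 0.1 (0.15 adjusted over the 6 pairs). With 3 against 3 libraries 0.1 is the smallest possible p, so no ratio could pass, whatever its values. The ratios also share their genes. The ratios of Zfhx2 to its relatives overlapped, with exact permutation p of 0.2 against Zfhx3 and 0.3 against Zfhx4.

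**Figure D3:**
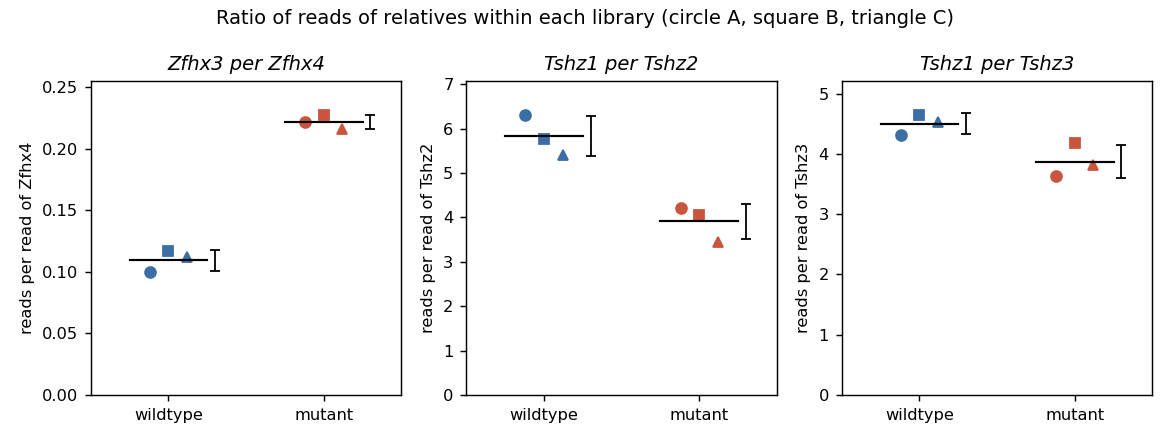
Reads of 1 gene per read of its relative (y axes, from 0) within each wildtype (blue) and mutant (red) library, with mean (line) and SD (bar, n = 3). Zfhx3 per Zfhx4 is near 0.109 in wildtype and 0.222 in mutant libraries, and Tshz1 per Tshz2 is lower in all mutant libraries.

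Satb1 (chromosome 17, 51736187 to 51833290, minus strand) had 321, 360.2 and 299 normalised reads in the wildtype libraries A, B and C, and 291, 273 and 297 in the mutant ones. The groups did not overlap, but the highest mutant and lowest wildtype libraries were nearly equal. Means were 327 ± 30.9 and 287 ± 12.7 (SD, n = 3 each). Its moderated log2 fold change was -0.15 (SE 0.115, adjusted p 0.743, DESeq2 Wald test) in the authors' deposited table.

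Counted together, 5 of the 7 genes did not overlap between the genotypes, 3 higher and 2 lower in the mutant, where 17.7% of 14401 genes with recovered reads separated in the same way, 8.8% higher and 8.85% lower. For Zfhx3 and Satb1 that separation rested on library pairs that lay almost level. Before adjustment, at a p under 0.05, 3 of the 7 passed, Zfhx4, Zfhx3 and Tshz2, beside 10.5% of all genes given an adjusted p by the authors (deposited DESeq2 Wald test). The median moderated log2 fold change of the 7 was -0.05, and that of all 14580 measured genes was -0.01. Exact permutation p adjusted over the 7 genes reached no less than 0.14. With 3 against 3 libraries no exact p can fall under 0.1, so this test could call none of them.

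**Figure D4:**
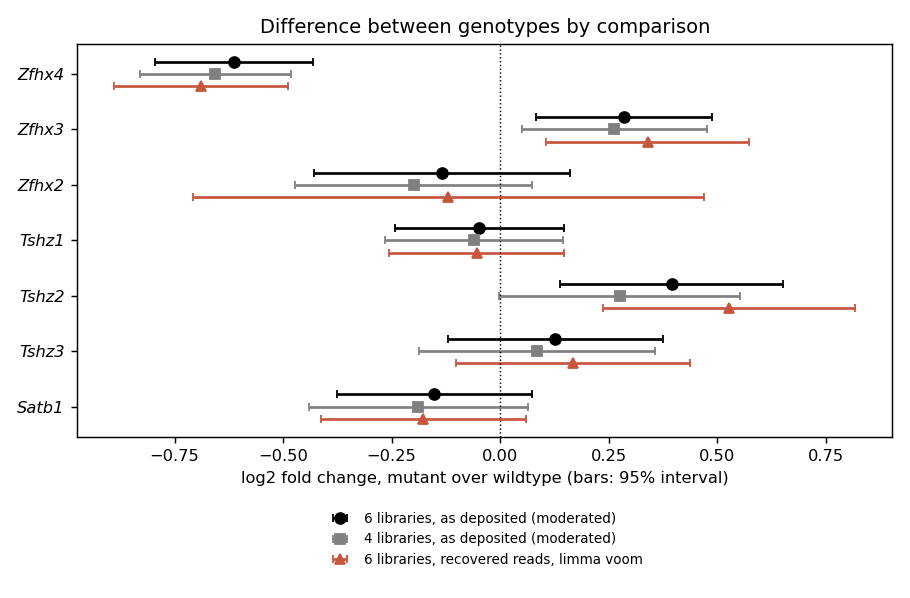
Log2 fold change of mutant over wildtype (x axis) with 95% intervals (from the SE for the deposited values) for each gene in the deposited comparisons of 6 (black) and 4 (grey) libraries and by limma voom on recovered reads (red). Only Zfhx4 lies far below 0 in all 3, and the moderated values lie closer to 0 for Tshz2.

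Levels were compared between genes per kilobase of annotated exonic length, as the mean over all 6 libraries. Zfhx4 stood at 584 normalised reads per kb, Tshz1 at 127, Zfhx3 at 66.8, Tshz3 at 32.6, Tshz2 at 20.3, Satb1 at 16.1 and Zfhx2 at 5.36. Each gene in this order exceeded the next in 6 of 6 libraries, except that Tshz2 exceeded Satb1 in 4 of 6. In wildtype libraries Tshz2 (16.7 ± 1.31) and Satb1 (17.2 ± 1.62) did not differ beyond their spread, while in mutant libraries Tshz2 stood at 24.0 ± 1.84 and Satb1 at 15.1 ± 0.669 per kb (SD, n = 3 each). Satb1 has a long annotated exonic length of 19 kb beside a coding length of 2.38 kb, and per kilobase of coding sequence it ranked with Zfhx3 instead.

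**Figure D5:**
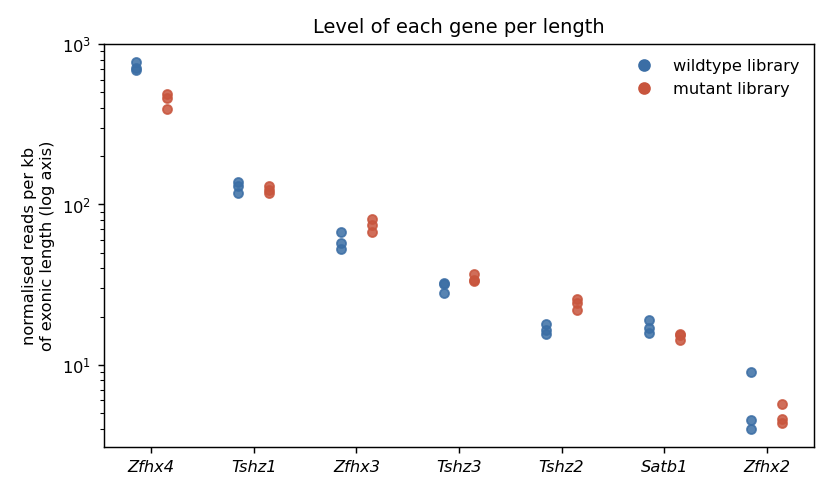
Normalised reads per kb of exonic length (log axis) for each gene in the wildtype (blue) and mutant (red) libraries, ordered by mean level. Zfhx4 is above all others in every library, and Tshz2 and Satb1 overlap in wildtype libraries.

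Promoter sequences from RefSeq (GRCm38.p6), the 250 bases before each listed start, were at hand for 5 of the genes, in 9 windows. None was at hand for Zfhx4 or Tshz1. Satb1 had more windows than any other gene, and some of its windows overlap each other. Those of Zfhx3 and Tshz2 are shown as a CG-rich and a CG-poor window of genes that had more normalised reads in every mutant than in every wildtype library. The window of Tshz3, the other such gene, holds 27 CG dinucleotides. Capitals mark CG dinucleotides. The Zfhx3 window lies at chr8:108714394-108714643 on the plus strand, at a start inside the longer annotated gene, and the Tshz2 window at chr2:169632259-169632508 on the plus strand.
Zfhx3: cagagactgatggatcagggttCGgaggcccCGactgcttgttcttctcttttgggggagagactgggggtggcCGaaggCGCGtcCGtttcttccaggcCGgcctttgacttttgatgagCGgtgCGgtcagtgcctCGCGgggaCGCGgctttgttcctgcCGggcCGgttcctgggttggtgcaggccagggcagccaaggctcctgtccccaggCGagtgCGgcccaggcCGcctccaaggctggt
Tshz2: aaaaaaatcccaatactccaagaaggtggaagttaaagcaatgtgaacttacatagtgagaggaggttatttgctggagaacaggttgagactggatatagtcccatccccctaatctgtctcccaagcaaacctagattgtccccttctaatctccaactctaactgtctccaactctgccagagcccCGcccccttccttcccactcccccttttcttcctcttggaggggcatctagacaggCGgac
The Zfhx3 window holds 18 CG dinucleotides and the Tshz2 window 2, where the median of 32851 windows is 6. The core recognition motif of Meis proteins, TGACAG, searched on both strands, was found in 0 of the 9 windows and in 15.9% of all windows of this length. These letters are not in these windows, which says nothing of binding elsewhere or of the starts of Zfhx4 and Tshz1.

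Lists of relatives and partners held few called genes, and with lists this short and 2.9% of all genes called, a count of 0 is near the background. None of the 8 measured zinc finger class homeobox relatives (Zeb, Adnp, Zhx and Homez genes) was called by the deposited DESeq2 Wald test, and their median log2 fold change was -0.09. Of 3 measured CUT class genes, the class Satb1 is related to, 0 were called, with a median of 0.09, and of 15 measured genes of the CtBP and NuRD corepressors, chromatin complexes that zinc finger repressors recruit, 0 were called, with a median of -0.06. Before adjustment, at a p under 0.05, these lists held 0, 1 and 2 genes in the authors' deposited table, and limma voom called 0 in each. Of 13 measured other large zinc finger factors of development 2 were called lower and 0 higher, with a median of 0.03 in the authors' deposited table. Mecom, a PR domain zinc finger factor, had 2024, 2284 and 2137 normalised reads in the wildtype and 1123, 1061 and 1185 in the mutant libraries, and fell by 0.84 on the log2 scale (adjusted p 1.46e-17, DESeq2 Wald test) in the authors' deposited table. Sall3, a spalt-like factor, fell by 0.55 (adjusted p 0.0123, DESeq2 Wald test), a call that the 4-library comparison did not make (adjusted p 0.0689), in the authors' deposited tables. Of 13 measured chromatin loop and architecture genes only Hmgb2, a DNA bending protein of dividing cells, was called with 6 libraries, and it fell by 0.41 on the log2 scale (adjusted p 0.00429, DESeq2 Wald test) in the authors' deposited table. Hmga2, another architectural gene of the list, was called lower as well in the authors' deposited 4-library table (log2 fold change -0.30, adjusted p 0.0374, DESeq2 Wald test).

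The tissue was checked against markers. All 8 palatal mesenchyme markers were measured, and 3 of them, Prrx1, Twist1 and Shox2, were called lower in the authors' deposited table, where the list median was -0.33 on the log2 scale. Pdgfra, the most abundant of them, stood at 0.20 there without a call, but was called higher in the authors' deposited 4-library table, at 0.23 (adjusted p 0.0473, DESeq2 Wald test), and Osr2 was at 0.08 with 6 libraries. Limma voom called 1 of the mesenchyme markers, and could not test Prrx1 and Pdgfra, whose reads were not recovered. In bulk tissue, fewer cells of a type and less RNA per cell cannot be told apart, for Zfhx4 as for these. Neuron markers were lower: 5 of 8 measured were called lower in the authors' deposited table, their summed normalised reads ran from 1132 to 1532 in wildtype and from 651 to 795 in mutant libraries, and the most abundant were Gap43 and Dcx. With 4 libraries 1 neuron marker was called and the list median was -0.20, against -0.50 with 6, in the authors' deposited tables. Limma voom called 2 neuron markers. Skeletal muscle markers were higher, 7 of 12 called in the authors' deposited table, with sums from 880 to 1316 in wildtype and from 2057 to 6258 in mutant libraries. The most abundant were Myh3, which was not called there (adjusted p 0.133, DESeq2 Wald test), and Actc1, which was (adjusted p 0.00871, DESeq2 Wald test). The highest sum was that of mutant library B, where Myh3 had 3555 normalised reads, against 967 and 1424 in the mutant libraries A and C. The authors' deposited 4-library table and limma voom each called 3 of the 12. Macrophage markers were higher for 3 of 10 in the authors' deposited table, with sums from 649 to 815 and from 1007 to 1158. There 1 of 7 smooth muscle markers was called higher and 1 of 9 glial markers lower. The glial median was -0.31 on the log2 scale, with sums from 2088 to 2744 in wildtype and from 1720 to 1959 in mutant libraries. With 4 libraries and by limma voom 0 glial markers were called. Markers of epithelium (10), endothelium (8) and lymphoid cells (2 measured) had 0 calls by the deposited DESeq2 Wald test and by limma voom, and 0 with a p under 0.05 before adjustment. Epithelial markers still had reads, with sums from 1167 to 1840 in wildtype and from 1274 to 1753 in mutant libraries. Cdh1 had 348 normalised reads in wildtype library C and 317 in mutant library C, against 152 to 226 in the A and B libraries. The part of these cell types in the lower Zfhx4 and the higher Zfhx3 and Tshz2 reads was not tested.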

How the data were processed

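The deposited data were 3 tables of the authors' own DESeq2 comparisons, the third repeating 1613 rows of the first. HISAT2, featureCounts and DESeq2, with GRCm38 and mm10, are named in the submitters' processing notes, without versions or roles. The base mean is a signal, the mean of counts over size factors, as deposited by the authors. Fold changes and standard errors are on the log2 scale as deposited by the authors. The Wald statistic is a score deposited by the authors. The deposited p-value and its Benjamini-Hochberg adjusted form come from the Wald test of DESeq2, run by the authors. The design text describes single-replicate comparisons. Genes with a single read show instead 6 size factors in the first table and 4 of the same libraries in the second.

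Whole reads per library were solved from the base means with the size factors read from single-read genes, using lattice reduction, in Python 3.11.15 and numpy 2.4.6. Of the genes above 0, 18820 were settled as the only solution and 1992 by also matching fold change and standard error, Zfhx4 among them, although the plan had been to use only genes with exactly 1 solution. At a base mean of 1500 or more, as for Zfhx4, only combinations with a limited spread between libraries were searched. A further match outside that search was not excluded. Of 9752 genes settled by base means alone and eligible for a check, 9608 had a spread that gave the deposited standard errors. The rest were left out of the check. Recomputed log2 fold changes of these 9608 lay within 1e-05 of the deposited 6-library values for 100% of them and of the 4-library values for 99.99%. The search by base means was tried on simulated data, where 1491 of 1500 sets of reads were recovered exactly, 9 had several solutions and 0 were wrong. Settling by fold change and standard error, the route of Zfhx4, was not tested on simulated data. The recovered reads were tested with limma 3.58.1 (voom, R 4.3.3) on genes with a mean of at least 10 normalised reads, scaled by the recovered size factors. This was an alternative chosen after seeing the data. On simulated reads of 14401 genes, all with the same spread, limma voom called 94% of 100 genes changed by 1.0 on the log2 scale. At a change of 0.6 it called 55% of 100, and it called 10 unchanged genes. The simulated spread was smaller than the deposited standard errors imply for Zfhx2, Tshz2 and Tshz3. These shares therefore do not stand for genes as variable as those.

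Main calls are the authors' adjusted p under 0.05 with all libraries. All 7 genes are named, from lists of related genes every called gene, and from the neuron and muscle markers the 2 most abundant. Pex2, 2700069I18Rik's values per library, Hmga2 and the mesenchyme markers were added after their values were seen. The ratios between relatives were not in the plan. The genes and lists were chosen with earlier results of these data known. RNA was amplified before TruSeq RNA v2 library preparation, per the labels' protocols, a step that can make low read numbers noisier. Lengths and positions are from GENCODE M21 (GRCm38).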

Additional observations from a re-analysis of the deposited data

How the results depend on the processing

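Zfhx4 kept its direction and its call under all alternatives that gave an adjusted p, and Zfhx3, Tshz1, Tshz3 and Satb1 kept direction and stayed uncalled in these fits. Zfhx2 ranged from -0.39 to 0.19 (log2) as single libraries were left out, and the 0.19, without wildtype library B, reversed its direction. Tshz2 was called at an adjusted p under 0.1, where its log2 fold change is 0.40 as before, and its unmoderated log2 ratio was 0.53. The 434 genes called overall became 104 to 287 when single libraries were left out of limma voom (104 without wildtype library A), against 314 by limma voom with all 6. Per kilobase of coding length the levels were 850 for Zfhx4, 228 for Tshz1, 129 for Satb1, 126 for Zfhx3, 54.9 for Tshz3, 51.2 for Tshz2 and 12.7 for Zfhx2, so that Satb1 moved up in the order. Over all alternatives the adjusted p of Tshz2 ran from 0.0676 to 0.537 and that of Zfhx3 from 0.113 to 0.671. No paired analysis was possible because the tables carry no replicate number for a library. With 3 libraries a side, small differences are below what these data can call.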

Other observations

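The measured neighbours of these genes mostly did not pass the test. Of the 13 nearest measured protein-coding genes on either side, Pex2 among them, 2 were called higher, 0 lower and 11 neither in the authors' deposited table. Of all genes with an adjusted p, 1.75% were called higher and 1.16% lower there. The log2 fold changes of the 13 ran from -0.18 to 0.50. The pair that rose, chosen here after their values were seen, lay far from the genes described. Zfp536, a zinc finger gene 699 kb from Tshz3, rose by 0.50 on the log2 scale (adjusted p 0.00203, DESeq2 Wald test) in the authors' deposited table. Efhb, an EF-hand gene 1566 kb from Satb1, also rose by 0.50 (adjusted p 0.0205, DESeq2 Wald test) in the authors' deposited table. Apart from 2700069I18Rik, the genes that overlap a member of these families and were counted, Zfhx2os, Lncbate1, Mir3108, AY702102 and A630075F10Rik, had base means of 2.68, 1.52, 1.21, 1.55 and 2.79 in the authors' deposited table, too few reads to compare.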
